A study of Mus musculus with 9 samples.

Results

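The 8 genes described here are Cldn3, Cldn4, Cldn6, Cldn7, Ocln, Tjp1, F11r and Epcam, which encode components of the tight junction and an epithelial adhesion molecule. They were chosen by symbol, and the brightest probe set annotated with that symbol alone stood for each, so that 8 of the 18193 genes with such a probe set were followed. Expression was measured on 9 arrays of mouse embryonic stem (ES) cells, pluripotent cells of the early embryo kept in culture. Of these, 4 were of cells differentiated without doxycycline (Dox-) and 4 with doxycycline at 1 µg/ml (Dox+), 1 array each at 0.5, 1.5, 2.5 and 3.5 days (D0.5 to D3.5), and 1 was of undifferentiated cells. Per the labels, the undifferentiated cells were grown with leukemia inhibitory factor and doxycycline, and differentiation took place in serum medium that lists no such factor. In all cells doxycycline controlled a PKA, or cyclic AMP-dependent protein kinase, that was constitutively active. Which of the media switched the kinase on, the cell clone and the promoter are not given in the labels, so the groups are named by their medium. No group had a replicate array, and days (or, between days, media) stood in for repeats, so p-values measure only the spread between these arrays.

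Tight junctions are belts of transmembrane strands near the apical edge of epithelial cells that close the space between neighbours. Claudins form the strands, occludin and the junctional adhesion molecules lie beside them, and ZO-1 ties them from the cytoplasm to actin. The early epiblast is an epithelium with such junctions, and cells that leave it through the primitive streak take them apart. EpCAM is a surface glycoprotein of epithelia and of mouse ES cells that binds claudin-7 and protects it from degradation, as shown in human and mouse epithelial cells.

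The claudins and Ocln read higher in Dox- cells on D1.5, Cldn4 by little, and lower in Dox- cells on D2.5 and D3.5. Differences are given as Dox- minus Dox+ on the log2(signal + 16) scale, on which 1 is a doubling of the signal plus 16 and changes of dim genes are understated. The median over the 8 genes was -0.02, 0.67, -0.92 and -1.59 for the 4 days in turn, against -0.04, 0.01, 0.01 and 0.00 over the 8716 genes tested. All 8 were higher in Dox- on D1.5 (50.7% of the tested genes were), and all 8 were lower on D2.5 (48.8%) and again on the last day (49.9%). This order of signs was found in 11.2% of the tested genes. On D0.5, 4 were higher and 4 lower. On the Dox- arrays all 8 genes had their highest signal on D1.5, which was so for 20% of the tested genes. On the Dox+ arrays 6 of the 8 were highest on D2.5 and the remaining 2, Cldn3 and Cldn6, on D3.5, while 46.4% of the tested genes were highest on D2.5 or D3.5. These counts compare single arrays and carry no test.

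**Figure D1:**
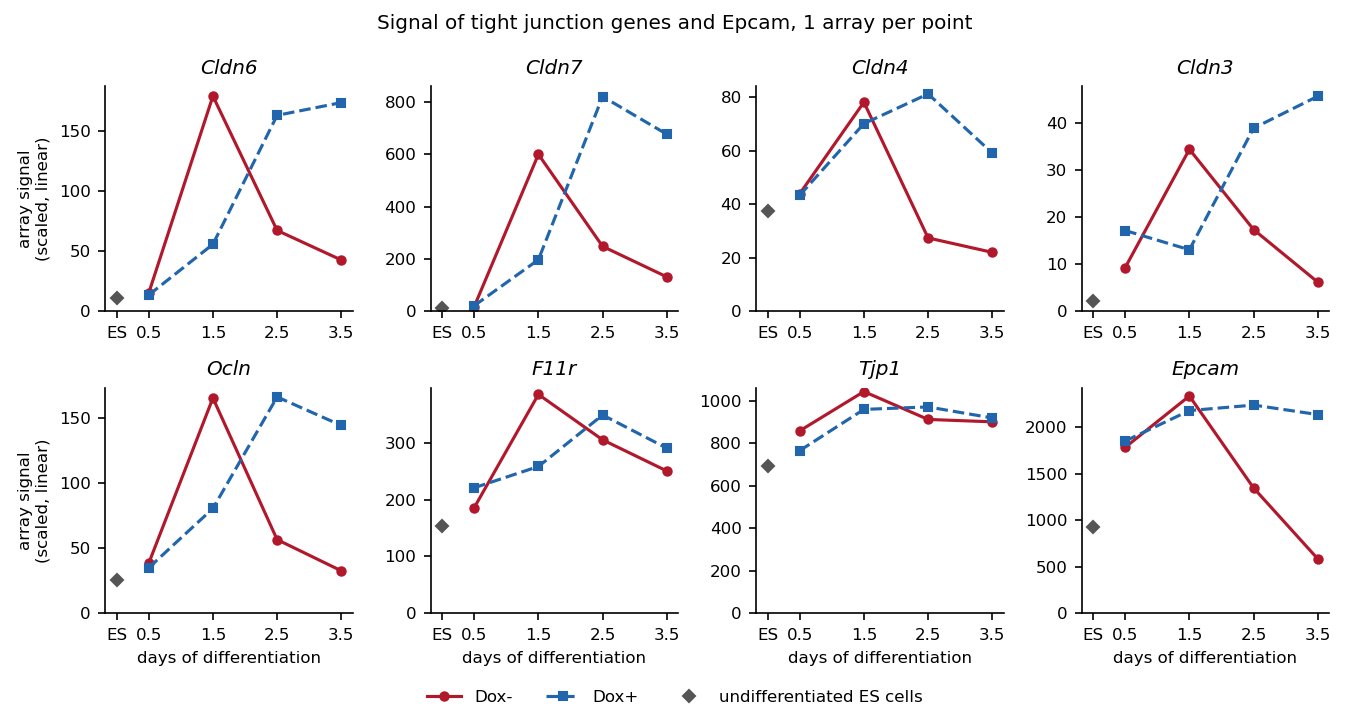
Array signal (scaled, linear, from 0) of the 8 genes against days of differentiation, for Dox- (red circles), Dox+ (blue squares) and undifferentiated ES cells (grey diamond), with 1 array per point and no error bars. Every red curve is highest on D1.5, and every blue curve lies above the red one on D2.5 and D3.5, by little for Tjp1, which stays between 692 and 1044.

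The promoters of 5 genes that were at least 2-fold lower in Dox- on D2.5 or D3.5 are shown so that their letters can be compared, with that of Tjp1, which differed least between the media on D2.5 and D3.5. All 8 genes matched a RefSeq window of 300 bases on GRCm38.p6, which holds 250 bases before the annotated start and 50 from it on, with a second window for Cldn7 and for Ocln. The windows printed are those of Cldn6 (chr17:23679115-23679414, plus strand), Cldn7 (chr11:69965171-69965470, plus strand, the second start), Cldn4 (chr5:134946885-134947184, minus strand), Ocln (chr13:100552669-100552968, minus strand, the first start), Epcam (chr17:87635729-87636028, plus strand) and Tjp1 (chr7:65371195-65371494, minus strand). Each reads 5′ to 3′ along the gene, and capitals mark 3 motifs searched on both strands, which overlapped nowhere in these windows.
Cldn6: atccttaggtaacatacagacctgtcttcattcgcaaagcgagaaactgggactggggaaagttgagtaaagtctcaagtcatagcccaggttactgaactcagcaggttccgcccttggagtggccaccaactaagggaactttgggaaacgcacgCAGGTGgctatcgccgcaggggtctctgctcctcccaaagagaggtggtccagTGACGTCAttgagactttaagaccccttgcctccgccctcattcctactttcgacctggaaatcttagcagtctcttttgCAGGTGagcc
Cldn7: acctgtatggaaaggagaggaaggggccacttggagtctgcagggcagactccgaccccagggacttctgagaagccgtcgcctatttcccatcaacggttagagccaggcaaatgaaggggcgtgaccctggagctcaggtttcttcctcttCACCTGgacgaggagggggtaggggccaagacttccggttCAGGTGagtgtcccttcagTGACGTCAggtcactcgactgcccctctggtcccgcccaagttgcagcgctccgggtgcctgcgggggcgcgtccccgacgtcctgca
Cldn4: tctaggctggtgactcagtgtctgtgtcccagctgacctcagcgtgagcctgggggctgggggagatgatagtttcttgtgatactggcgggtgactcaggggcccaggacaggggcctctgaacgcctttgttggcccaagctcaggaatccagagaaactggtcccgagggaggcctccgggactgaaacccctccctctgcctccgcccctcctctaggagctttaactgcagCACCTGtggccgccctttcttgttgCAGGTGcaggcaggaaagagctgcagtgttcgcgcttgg
Ocln: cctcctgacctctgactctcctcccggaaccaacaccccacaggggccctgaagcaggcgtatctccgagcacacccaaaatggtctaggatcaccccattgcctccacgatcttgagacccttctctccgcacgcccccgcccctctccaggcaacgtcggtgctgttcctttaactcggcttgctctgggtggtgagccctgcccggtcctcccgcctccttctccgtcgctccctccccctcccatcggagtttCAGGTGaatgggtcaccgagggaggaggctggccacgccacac
Epcam: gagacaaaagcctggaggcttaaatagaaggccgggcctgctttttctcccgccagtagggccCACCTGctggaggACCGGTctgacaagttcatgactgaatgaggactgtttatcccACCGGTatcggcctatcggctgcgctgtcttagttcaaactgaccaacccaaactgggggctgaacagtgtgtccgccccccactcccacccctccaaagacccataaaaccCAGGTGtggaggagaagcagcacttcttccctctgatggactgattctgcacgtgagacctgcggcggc
Tjp1: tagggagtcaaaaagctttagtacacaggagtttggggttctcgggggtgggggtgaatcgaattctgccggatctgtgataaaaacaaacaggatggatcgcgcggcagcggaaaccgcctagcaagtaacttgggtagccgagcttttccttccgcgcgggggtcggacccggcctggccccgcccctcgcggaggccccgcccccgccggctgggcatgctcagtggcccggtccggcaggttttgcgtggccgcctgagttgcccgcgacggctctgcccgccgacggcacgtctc
The motifs were CACCTG (read as CAGGTG on the other strand), the E-box bound by the Snail and ZEB repressors of epithelial genes, ACCGGT, the centre of the binding site of grainyhead-like activators, and TGACGTCA, the full cyclic AMP response element, which is bound by CREB, a transcription factor that PKA phosphorylates. CACCTG was found in 7 of the 8 genes, all but Tjp1, and in 22.6% of the 27025 genes with a promoter window. TGACGTCA was found in Cldn6 and in the second window of Cldn7, starting at positions -40 and -38 from the annotated start, and in 2.03% of all genes. ACCGGT was found in Epcam only, at -174 and -131, and in 2.68% of all genes. A match is a description of the letters, the motifs were chosen with the sequences in view, and binding was not measured.

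Among the claudins, Cldn6 and Cldn7 had the widest range of differences. Cldn6 encodes a claudin of early embryonic epithelia and is a known early epithelial marker in differentiating mouse ES cells. Signals are listed by day, from D0.5 on. Cldn6 read 15.1, 179, 67.2 and 42.6 on the Dox- arrays and 13.5, 55.7, 163 and 174 on the Dox+ arrays, against 11 in undifferentiated cells. The Dox- arrays thus held their highest value on D1.5 and the Dox+ arrays on D2.5 and D3.5. The media differed by 1.44 on D1.5, then by -1.10 and -1.69 on the following days.

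Cldn7, the claudin that binds EpCAM, read 17.6, 599, 248 and 131 on the Dox- arrays and 21.2, 197, 820.0 and 676 on the Dox+ arrays, against 13.9 in undifferentiated cells. It had the largest difference of the 8 genes on each of the last 3 days, at 1.53, -1.66 and -2.23 in turn. Relative to undifferentiated cells it stood higher by 4.36 on the D1.5 array of Dox- and by 4.81 on the D2.5 array of Dox+. On D3.5 it was still higher than in undifferentiated cells, by 2.30 in Dox- and 4.53 in Dox+.

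Cldn4 and Cldn3 encode claudins known as receptors of a clostridial enterotoxin. Cldn4 read 43.9, 78.1, 27.4 and 22.0 on the Dox- arrays and 43.3, 70.1, 81.2 and 59.1 on the Dox+ arrays, against 37.6 in undifferentiated cells. On D1.5 the media differed by only 0.13 for this gene, and on D2.5 and D3.5 by -1.16 and -0.98. Both late Dox- arrays lay below undifferentiated cells, at -0.30 and -0.50 from them. Cldn3 was dim, with 9.3, 34.5, 17.4 and 6.2 on the Dox- arrays and 17.2, 13.1, 39.0 and 45.8 on the Dox+ arrays, against 2.1 in undifferentiated cells. It did not enter the tests, which required 2 or more arrays with a signal of 50 or more, and the next gene inside that limit was Cldn4, with 4 such arrays. Its 4 probe sets, some of a kind that may also bind other transcripts, all gave positive differences on D1.5 and negative ones on D2.5 and D3.5, between -0.90 and -1.48 on D3.5.

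Ocln encodes occludin, a 4-span membrane protein of the strands. It read 38.3, 165, 56.5 and 32.5 on the Dox- arrays and 34.8, 80.5, 166 and 144 on the Dox+ arrays, against 25.6 in undifferentiated cells. The difference was 0.91 on D1.5, with -1.33 and -1.72 on the days after, and the second probe set of Ocln gave 0.50, -1.09 and -2.17. By D3.5 the Dox- array lay only 0.22 above undifferentiated cells, and the Dox+ array 1.95 above.

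F11r and Tjp1 differed less between the media. F11r encodes JAM-A, an immunoglobulin-like adhesion molecule of the junction. It read 186, 386, 305 and 250.5 on the Dox- arrays and 221, 258, 349 and 291 on the Dox+ arrays, against 154 in undifferentiated cells. Its difference was 0.55 on D1.5 and then -0.18 and -0.20, and a second probe set of F11r, at most 12.6 on any array, gave -0.28 on D1.5. Tjp1 encodes the scaffold ZO-1, which also serves adherens junctions, and read 859, 1044, 913 and 901 on the Dox- arrays and 766, 959.9, 972 and 919.5 on the Dox+ arrays, against 692 in undifferentiated cells. Its differences were 0.16, 0.12, -0.09 and -0.03 on the 4 days.

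Epcam differed from Cldn6 and Cldn7 in its early course. It read 1784, 2336, 1347 and 583 on the Dox- arrays and 1852, 2179, 2238 and 2136 on the Dox+ arrays, against 927 in undifferentiated cells. The signal was already higher than in undifferentiated cells by 0.93 in Dox- and 0.99 in Dox+ on D0.5. On that day Cldn6 was higher by 0.20 and 0.13, Cldn7 by 0.17 and 0.32, and the dim Cldn3 by 0.48 and 0.88. The media differed by only 0.10 on D1.5, then by -0.73 and, at the end, -1.84, and the D3.5 array of Dox- was the lowest of all 9, at -0.65 from undifferentiated cells. The second probe set of Epcam gave -0.14, -0.35 and -1.18 on these 3 days, so it did not share the positive sign of D1.5.

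On D0.5, 0 of the 8 genes were 2-fold apart, against 0.0918% of the tested genes higher and 0.0229% lower in Dox-. On D1.5, 2 of the 8, Cldn6 and Cldn7, were at least 2-fold higher in Dox-, as were 1.33% of the tested genes, and 0 were at least 2-fold lower, against 1.42%. On D2.5, 4 genes (Cldn4, Cldn6, Cldn7 and Ocln) were at least 2-fold lower in Dox-, against 4.45% of the tested genes. On D3.5, 5 genes (Cldn3, Cldn6, Cldn7, Ocln and Epcam) were at least 2-fold lower, of which 4 were among the 7 tested, against 4.8% of the tested genes. On neither of these days was any of the 8 at least 2-fold higher in Dox-, as 3.41% and 4.13% of the tested genes were.

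**Figure D2:**
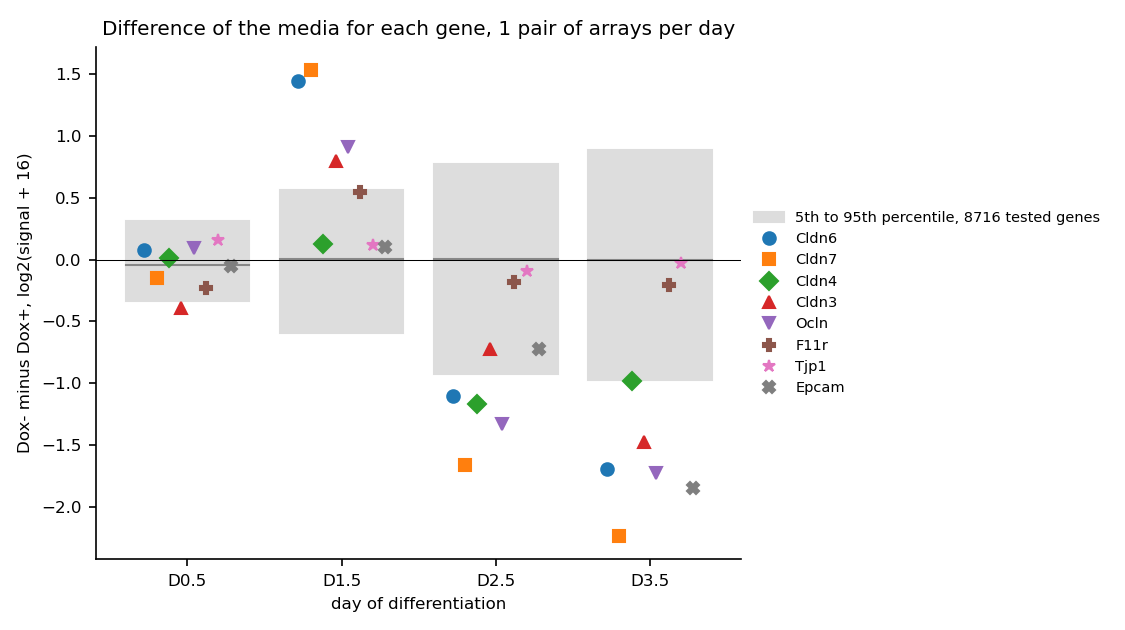
Dox- minus Dox+ on the log2(signal + 16) scale for each of the 8 genes (symbols) on each day, 1 pair of arrays per day. Grey boxes span the 5th to 95th percentile and the grey line the median of the 8716 tested genes, and Cldn6, Cldn7, Ocln and Cldn3 lie above the box on D1.5 while Cldn6, Cldn7, Cldn4 and Ocln lie below it on D2.5.

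Relative to undifferentiated cells, in Dox- on D1.5 a count of 6 of the 8 genes stood at least 2-fold higher (Cldn3, Cldn6, Cldn7, Ocln, F11r and Epcam; 8.74% of the tested genes). In Dox- this count was 2 on D3.5, Cldn6 and Cldn7 (12.7%). In Dox+ the D2.5 array gave 6 (9.55%) and the D3.5 array 5 (11.1%). Within Dox-, 4 of the 8 were at least 2-fold lower on D2.5 than on D1.5, Cldn4, Cldn6, Cldn7 and Ocln, against 2.49% of the tested genes. Epcam alone was at least 2-fold lower on D3.5 than on D2.5 (-1.19; 2.19%).

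The values of Dox- cells on D1.5 lay near those of Dox+ cells on D2.5. Cldn6 read 179 in Dox- on D1.5 and 163 in Dox+ on D2.5, Ocln 165 and 166, Cldn4 78.1 and 81.2, and Epcam 2336 and 2238. Over the 8 genes this difference lay between -0.44 for Cldn7 and 0.14, with a median of 0.03, and 0 of the 8 were 2-fold apart. Few tested genes were 2-fold apart between these arrays at all, with 0.769% higher and 0.252% lower in the Dox- array. This pair of arrays was set side by side after the values were seen and has no test.

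When the 4 days were fitted together, none of the genes differed between the media past the threshold. The fit (limma, with the day as a block) called 0 of 7 tested members and 0% of the 8716 genes in either direction at an adjusted p under 0.05, and 0 members and 1026 genes had an unadjusted p under 0.05. Estimates of 6 members were negative, with Epcam at -0.63 ± 0.31 (SE, 4 days; limma adjusted p = 0.442) and Cldn4 at -0.50 ± 0.27 (adjusted p = 0.461). Opposite signs on D1.5 and later count as spread in this fit. A steady change of the media difference per day was therefore tested too, and its limma estimate was negative for all 7, at -0.95 ± 0.39 per day for Cldn7, -0.79 ± 0.33 for Cldn6, -0.77 ± 0.26 for Ocln and -0.62 ± 0.13 for Epcam (SE). It called 0 of 7 members and 0% of genes in either direction, with 2 members (Ocln and Epcam) and 1103 genes at an unadjusted p under 0.05, and the lowest adjusted p among the 7 was 0.207 for Epcam.

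On D2.5 and D3.5 together, Cldn7, Ocln and Epcam were called lower in Dox- than in Dox+. Cldn4 was called lower too, with a limit given below. The late-day fit, which an earlier analysis added after seeing the values, tests 1 difference common to both days, with the earlier days counting as spread, so its p-values describe these arrays. It called 4 of the 7 tested members lower and 0 higher, against 4.35% of all tested genes lower and 2.83% higher. The estimate was -1.95 ± 0.44 for Cldn7 (SE, 2 days; limma adjusted p = 0.0448), -1.53 ± 0.30 for Ocln (adjusted p = 0.0278), -1.29 ± 0.23 for Epcam (adjusted p = 0.0209) and -1.07 ± 0.18 for Cldn4 (adjusted p = 0.0176). Cldn6 was not called, at -1.40 ± 0.43 (limma adjusted p = 0.101), nor were F11r at -0.19 ± 0.20 (0.590) and Tjp1 at -0.06 ± 0.11 (0.782). The members' median was -1.29, against 0.01 over all tested genes. Without the arrays of D0.5 the fit called 0 of the 7, without those of D1.5 it called 5, with Cldn6 among them (limma adjusted p = 0.012), and without those of D2.5 or of D3.5 it called 1, Epcam. Over the alternatives run, Epcam was called in 10 of 12, Ocln in 9 of 12, Cldn4 in 8 of 11 and Cldn7 in 6 of 12. The next brightest probe set of Epcam gave -0.77 ± 0.22 (adjusted p = 0.0877), which was not called. Cldn4 met the signal minimum on 3 Dox+ arrays and 1 Dox- array, and so passed the filter through Dox+, where it was high. Its call, although counted above, is therefore no support for a difference.

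**Figure D3:**
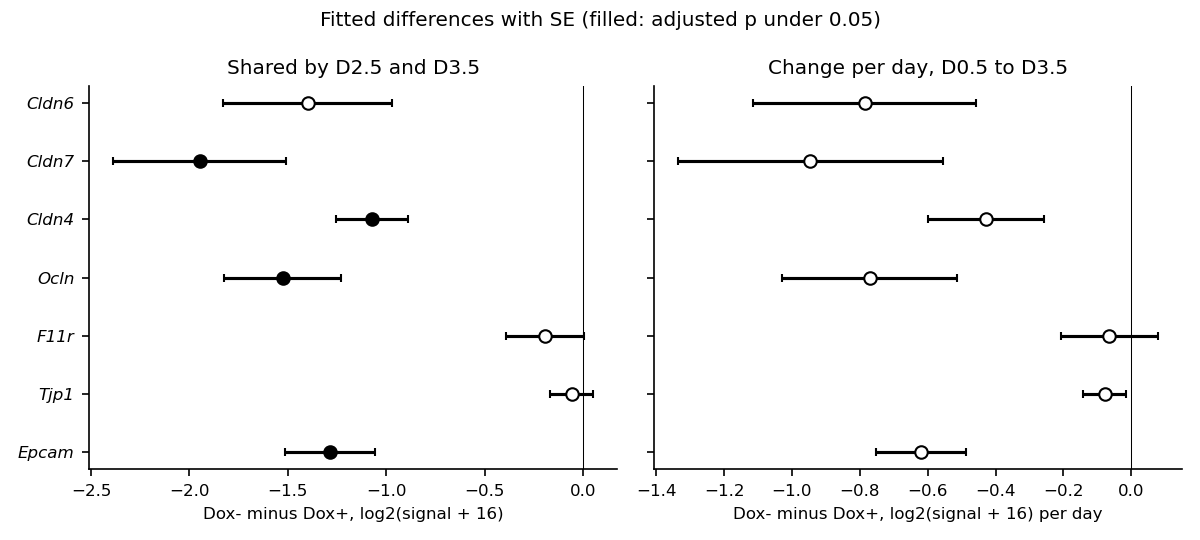
Fitted Dox- minus Dox+ differences on the log2(signal + 16) scale with their SE for the 7 tested genes. The left panel gives the late-day fit (D2.5 with D3.5) and the right panel the change per day, filled points have an adjusted p under 0.05, and only Cldn7, Cldn4, Ocln and Epcam in the left panel are filled.

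In a fit of both media, Cldn7 rose between the first and the last day by 3.17 ± 0.84 (SE, limma adjusted p = 0.0426). It was the 1 member called of 7, a share near the 11.8% of tested genes called higher, with 10.2% called lower. Cldn6 was not called, at 1.80 ± 0.70 (limma adjusted p = 0.116), nor were Ocln at 0.75 ± 0.62, F11r at 0.39 ± 0.22, Tjp1 at 0.16 ± 0.11, Cldn4 at -0.16 ± 0.38 and Epcam at -0.69 ± 0.44. The call of Cldn7 was lost without the arrays of D2.5 (limma adjusted p = 0.057) and under 5 other processing settings. Cldn7 lay below the signal minimum on both D0.5 arrays and entered the tests through later arrays, where it was high. Its call is therefore no support for a change with the day.

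Other membrane proteins of the tight junction included genes with the course of Cldn6 and Ocln. Of 13 such genes with a probe set 8 were tested, and the late-day fit called 2 lower in Dox- and 0 higher, with a median of -0.22, where 4.35% of all tested genes were called lower and 2.83% higher in this fit. Crb3, which encodes an apical polarity protein, read 12.8, 139, 41.3 and 22.9 on the Dox- arrays and 10.7, 63.8, 224 and 225 on the Dox+ arrays, against 8.8 in undifferentiated cells. In the late-day fit it fell by 2.35 ± 0.32 (SE; limma adjusted p = 0.00912). Marveld3, a relative of occludin, read 8.6, 104.5, 23.8 and 15.5 on the Dox- arrays and 8.4, 28.9, 114 and 110.4 on the Dox+ arrays, against 5.4 in undifferentiated cells, and was also called (-1.86 ± 0.43, limma adjusted p = 0.0471). Crb3 and Marveld3 reached the signal minimum of 50 on 1 Dox- array each, and so entered the tests through Dox+, where they were high, so their calls are no support for a difference. Marveld2, which encodes tricellulin, the occludin relative of corners where 3 cells meet, read 19.5, 75.9, 39.0 and 25.0 on the Dox- arrays and 18.2, 39.3, 78.6 and 84.5 on the Dox+ arrays and was not called (-1.04 ± 0.29, adjusted p = 0.0769), nor was Jam2, a relative of F11r (0.45 ± 0.35, adjusted p = 0.471). Of the other 17 claudins with a probe set only Cldn12 passed the signal filter, with a difference of -0.02 on D2.5 and D3.5.

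Of 19 tested scaffold and polarity genes the same fit called 1 higher and 1 lower in Dox-, with a median of 0.02, a share near that of all tested genes given above. Cgn, which encodes the junctional plaque protein cingulin, was lower (-1.30 ± 0.24, limma adjusted p = 0.0228), and read 58.1, 85.2, 33.4 and 34.8 on the Dox- arrays and 75.5, 135, 117 and 97.9 on the Dox+ arrays. Amot, which encodes angiomotin, a junctional scaffold that binds YAP, was higher (2.61 ± 0.56, limma adjusted p = 0.0386), with a D3.5 signal of 4226 in Dox- and 809 in Dox+. Magi3 and Mpp5, which encode scaffolds with PDZ domains, were not called, at 1.39 ± 0.52 (limma adjusted p = 0.159) and 0.51 ± 0.13 (0.0647), and Magi3 read 722 in Dox- and 98.7 in Dox+ on the last day. Of 10 tested genes for EpCAM partners and the matriptase system, which cleaves EpCAM, 1 was called higher and 0 lower. The shares over all tested genes were 2.83% and 4.35%. The called gene was Cd44, a hyaluronan receptor, with a D3.5 signal of 361 in Dox- and 89.5 in Dox+ (limma adjusted p = 0.0373). Cd44 reached the signal minimum on 2 Dox- arrays and 1 Dox+ array. It thus entered the tests through Dox-, where it was high, so its call is no support for a difference. Of the genes not called, Tmprss2, a membrane serine protease, had a D3.5 signal of 99.1 in Dox- and 35.7 in Dox+ (1.06 ± 0.33, limma adjusted p = 0.101). Fhl2, a LIM-domain protein that joins the cleaved EpCAM tail, had 147 in Dox- and 51.1 in Dox+ (1.04 ± 0.27, limma adjusted p = 0.0684). Spint2, the matriptase inhibitor HAI-2, had a D3.5 signal of 418.6 in Dox- and 1156 in Dox+ and was not called (-0.92 ± 0.22, adjusted p = 0.0568).

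Among 13 tested genes of adherens junctions and desmosomes, 1 was called lower and 2 higher in Dox-. Of all tested genes 4.35% were called lower and 2.83% higher, the shares to set beside this list and the next. Cdh1 (E-cadherin) was lower in Dox- by 1.99 ± 0.36 (SE, limma adjusted p = 0.022), whereas Cdh2 (N-cadherin) and the desmosomal plaque gene Dsp were higher (1.93 ± 0.23 and 1.69 ± 0.20). Pkp2, of the desmosomal plaque, was not called (-0.56 ± 0.20, limma adjusted p = 0.147). Among 7 tested epithelial transcription and splicing regulators, Cdx2 (3.77 ± 0.25), Tfap2c (2.11 ± 0.29) and Klf4 (1.28 ± 0.29) were called higher and Grhl2 lower. Of the differentiating cultures, Cdx2 and Tfap2c reached the signal minimum only on the late Dox- arrays, where they were high, so these calls are no support for a difference either. Grhl2, an activator of junction genes named here after its values were seen, read 281, 202, 51.5 and 47.7 on the Dox- arrays and 242, 179.8, 145 and 122 on the Dox+ arrays (-1.18 ± 0.15, limma adjusted p = 0.00756). Esrp1, an epithelial splicing regulator, read 92.3, 635, 395 and 129 on the Dox- arrays and 85.5, 397, 651 and 626 on the Dox+ arrays, and was not called (-1.42 ± 0.34, adjusted p = 0.0548).

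Of 4 tested repressors of epithelial genes, of which the Snail and ZEB proteins bind the CACCTG motif capitalised above, 2 were called higher in Dox- on D2.5 and D3.5 and 0 lower. Among all tested genes 2.83% were called higher and 4.35% lower. Zeb1 read 198, 25.6, 86.2 and 239 on the Dox- arrays and 193, 87.9, 23.9 and 25.5 on the Dox+ arrays, against 209 in undifferentiated cells. Its lowest Dox- value was that of D1.5, and its fitted difference was 1.99 ± 0.45 (SE; limma adjusted p = 0.0448). Zeb2 read 5.2, 32.9, 79.1 and 124 on the Dox- arrays and 5.2, 18.0, 6.6 and 40.1 on the Dox+ arrays, and was called as well (1.69 ± 0.29, limma adjusted p = 0.0197). It entered the tests only through the 2 late Dox- arrays, where it was high, so this call is no support for a difference. Snai2, which encodes the Snail relative Slug, read 38.0, 4.9, 12.4 and 413 on the Dox- arrays and 49.1, 54.1, 11.1 and 16.2 on the Dox+ arrays, and was not called (1.90 ± 0.85, limma adjusted p = 0.225). Tcf4, an E-box factor, was not called either (0.25 ± 0.14, limma adjusted p = 0.312). The part of these factors in the junction genes' signal was not tested.

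**Figure D4:**
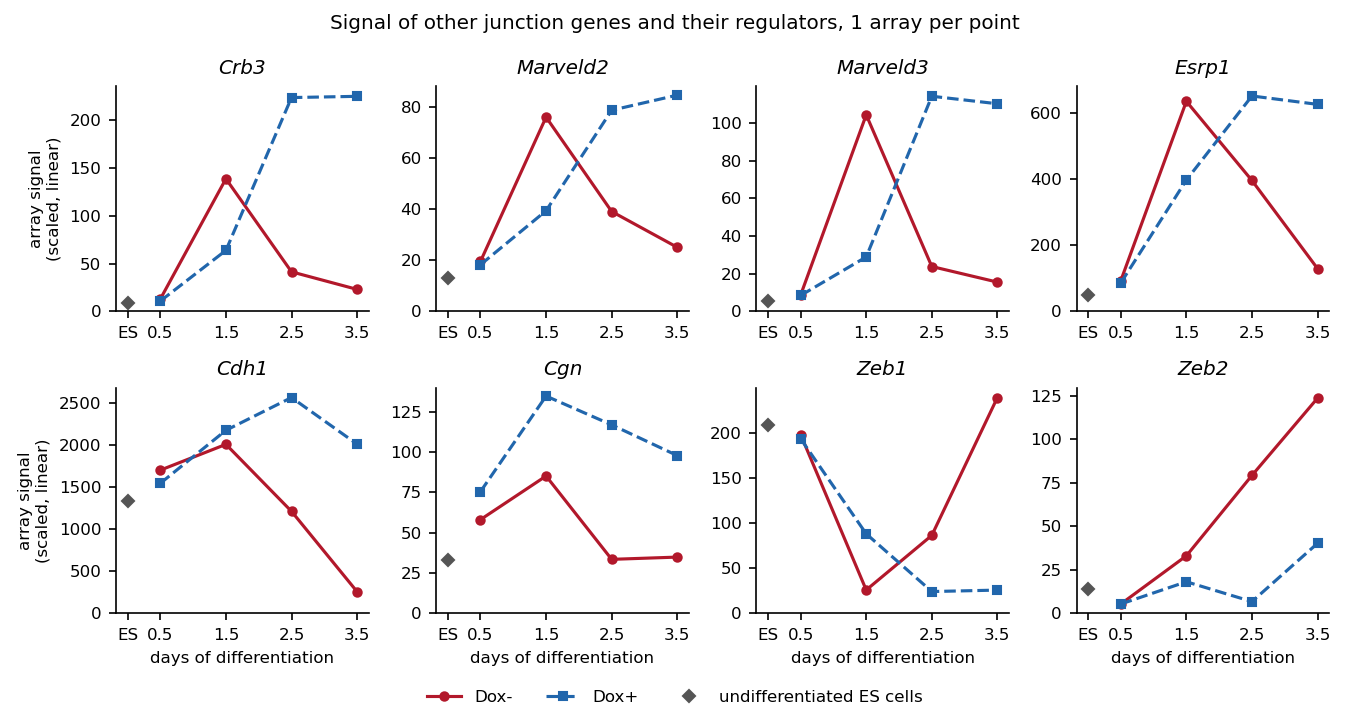
Array signal (scaled, linear, from 0) against days of differentiation for Crb3, Marveld2, Marveld3, Esrp1, Cdh1, Cgn, Zeb1 and Zeb2, drawn as for the 8 genes, with 1 array per point. Crb3, Marveld2, Marveld3 and Esrp1 are highest on D1.5 in Dox- (red) and on D2.5 or D3.5 in Dox+ (blue), and Zeb1 is lowest on D1.5 in Dox- at 25.6 and on D2.5 in Dox+ at 23.9.

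The tested genes whose course over the 9 arrays was most like that of Cldn6 were Glrx2, Marveld2, Syt13, Zfp946 and Slc35e3, with Pearson's r between 0.977 and 0.993. Those most like Epcam were Otx2, Ddx17, Rgl2, Pold3 and Ipo8, with r between 0.970 and 0.982. Otx2, a transcription factor gene of the epiblast, read 1116, 1326, 671 and 53.8 on the Dox- arrays and 1031, 1116, 1446 and 1175 on the Dox+ arrays, against 162 in undifferentiated cells. Within the group, Cldn6 was closest to Cldn7 (r = 0.987) and Ocln (r = 0.945), and farther from Epcam (r = 0.473). Epcam was closest to Cldn4 (r = 0.859). The arrays share cells and days, so these coefficients over 9 arrays are a description and carry no p.

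In these whole cultures, fewer cells with a junction and less RNA per cell cannot be told apart. The 6 mesoderm markers summed to a signal of 3677 and 3257 on the Dox- arrays of D2.5 and D3.5, against 49.8 and 723 on the Dox+ arrays, and the 6 ES cell markers to 4269 and 1491 against 8253 and 6320. The 6 trophoblast markers summed to 422 and 1269 against 52.2 and 121, with Elf5 at most 6.0 on any array, the 6 primitive endoderm markers to 1229 and 1250.2 against 109.7 and 245, and the 6 definitive endoderm markers to 375 and 419.4 against 71.0 and 160.0. The 5 fibroblast markers summed to 105 and 362 against 103 and 103, the 4 neural markers to 16.7 and 4.7 against 103 and 47.7, and the 4 surface ectoderm markers to 52.6 and 60.9 against 30.1 and 49.8, with Krt14 at most 7.6. These lists share genes with others. Pdgfra, with 729 and 661 in Dox- against 4.0 and 123.5 in Dox+, is in both the mesoderm and the primitive endoderm sums and made up more than any other gene of the primitive endoderm sum in Dox-. Cdx2, with 225 and 915 in Dox- against 4.9 and 42.0 in Dox+, and Tfap2c are in the trophoblast sum and among the epithelial regulators above. Not every marker followed the sum of its list. Among those that did not, Nanog of the ES cell list read 1324 in Dox- against 826 in Dox+ on D2.5. Krt7 of the trophoblast list read 11.4 against 23.9 on D2.5, and Thy1 of the fibroblast list 25.5 against 36.6 on D3.5. Dim genes of the neural and surface ectoderm lists did so too. The definitive endoderm markers did not all follow their sum on D3.5 either. Foxa2 read 79.7 in Dox- against 13.5 in Dox+ on D2.5, but 11.5 against 78.6 on D3.5. The dim Foxa1 and Cer1 were also lower in Dox- on D3.5, whereas Sox17, Hhex and Cxcr4 were higher. Cxcr4, at 243.6, made up more than any other gene of that sum in Dox- on D3.5. No marker was listed at exactly 0. The late-day fit (limma) called 4 of 5 tested mesoderm markers higher in Dox- and 2 of 6 ES cell markers lower. Higher calls also went to 3 of 5 primitive endoderm, 2 of 2 trophoblast, 1 of 4 definitive endoderm and 1 of 1 fibroblast markers. The 1 tested neural marker was called lower. Of all tested genes this fit called 2.83% higher and 4.35% lower. The called mesoderm markers, Kdr, Mesp1, Pdgfra and Tbx20, entered the tests through the Dox- arrays, where they were high. Among the differentiating cultures, this was also so for the called endoderm, trophoblast and fibroblast markers. The calls of all these markers are no support for a difference. On D1.5, when Cldn6 and Cldn7 were higher in Dox-, the mesoderm sum was 161 in Dox- and 50.5 in Dox+. For Actb, whose 3' over 5' signal tracks how intact the RNA was, that ratio on D3.5 was 1.64 in Dox- and 1.94 in Dox+, within 1.60 and 1.98 over all 9 arrays. The part of other cells and of RNA quality in the junction genes' signal was not tested.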

How the data were processed

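The authors deposited linear array intensity values of 45101 probe sets for 9 arrays. Per the submitters' processing notes they were made with GCOS, whose version and settings were not found in the labels. Each array's deposited intensity values, less the top and bottom 2%, averaged 100. Probe sets were named from the platform annotation (34945 with 1 symbol), updated through gene IDs with the RefSeq table of GRCm38.p6, and for each of 18193 genes the probe set of highest mean signal stood for the gene. The arrays were not normalized again. Signals were analysed as log2(signal + 16). Genes reaching 50 on 2 or more arrays (8716) were tested.

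Limma (version 3.58.1, R 4.3.3; lmFit, eBayes with a mean-variance trend) was run on the arrays of differentiating cells for the media with day as block, over all days and for D2.5 with D3.5 (3 residual degrees of freedom each), for the product of medium and day with the day as a factor (2), and for D3.5 minus D0.5 with the medium as a block (3), with Benjamini-Hochberg adjustment over all tested genes. The fits were tested on simulated data with known changes. The simulated noise was independent and drawn from the fitted spread, so it cannot show how well days stand in for repeats. Alternatives were the pseudocount, quantile normalization, other probe sets, the signal filter, the trend, the block and leaving out days. The genes, the lists and the late-day fit were chosen with earlier results of these data known. From each list of junction genes and regulators the text names the genes with the largest mean difference on D2.5 and D3.5 (up to 4), unless it says otherwise. The number of arrays limits the precision.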

Additional observations from a re-analysis of the deposited data

How the results depend on the processing

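The signs of the late and D1.5 medians did not depend on the settings tried. With pseudocounts of 1 and 64, quantile normalization, second brightest probe sets and the mean of all probe sets, the median over the 8 genes stayed above 0 on D1.5 and below 0 on D2.5 and D3.5, and moved by less than the SD between the genes. The calls of the late-day fit (D2.5 with D3.5) depended on the days: 4 members became 0 without the arrays of D0.5, 5 without D1.5, 1 without D2.5 and 1 without D3.5. The single call of D3.5 minus D0.5 became 0 with a pseudocount of 64, with quantile normalization, with the mean of all probe sets, without the signal filter, without the trend and without the arrays of D2.5, and 2 without the arrays of D1.5. The cause was not tested. Estimates that turned sign were all of genes that were not called: Cldn6 over the 4 days (0.14 without D3.5), F11r over the 4 days (0.054 without D0.5, 0.038 without D2.5, 0.044 without D3.5), F11r in the change with day (0.012 without D1.5, 0.023 without D3.5) and F11r in D3.5 minus D0.5 (-0.029 with the mean of all probe sets). No member was called over the 4 days or in the change with day under any alternative, including one added after seeing the data, with the day as a number. The limma adjusted p of the late-day fit lay between 0.00111 and 0.0877 for Epcam and between 0.00361 and 0.230 for Cldn7 over 12 alternatives. In the media fits the day paired the Dox- and Dox+ arrays, and without the day block the fit over the 4 days also called 0 members.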

Other observations

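Several other junction genes changed with the day. For D3.5 minus D0.5, limma called 3 of the 8 tested membrane proteins of the tight junction higher and 1 lower, and 6 of the 19 scaffold and polarity genes higher and 1 lower, against 11.8% and 10.2% of all tested genes. The genes below were picked for naming after their values were seen. Jam2, a junctional adhesion molecule of the same family as F11r, read 223, 7.3, 14.7 and 28.8 on the Dox- arrays from D0.5 on and 277, 32.4, 8.0 and 14.6 on the Dox+ arrays, against 629.6 in undifferentiated cells, and fell by 2.84 ± 0.42 (SE; limma adjusted p = 0.00932). Jam2 was thus low on the arrays of D1.5 on which Cldn6 and Cldn7 were high in Dox-. Of the differentiating cultures, Jam2 reached the signal minimum only on D0.5, where it was high, so its call is no support for a change. Its relative Jam3 read 54.8, 138, 152 and 179.6 on the Dox- arrays and 70.7, 127, 139 and 165 on the Dox+ arrays, and rose by 1.26 ± 0.17 (limma adjusted p = 0.00739). Patj, a scaffold of the Crumbs polarity complex to which Crb3 belongs, read 17.2, 77.0, 115 and 116 on the Dox- arrays and 11.4, 36.8, 85.5 and 121 on the Dox+ arrays, and rose by 2.16 ± 0.25 (limma adjusted p = 0.00539). Patj entered the tests only through arrays later than D0.5, where it was high, so its call is no support for a change either. Cldn12, the 1 tested claudin outside the 4 described, read 504, 707, 830.3 and 845 on the Dox- arrays and 515, 654, 788 and 918 on the Dox+ arrays, and rose by 0.77 ± 0.12 (limma adjusted p = 0.00954).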
